A study of Mus musculus with 8 samples.

Results

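TREM2 is a lipid-sensing receptor of macrophages, and its gene was described here in brown adipose tissue (BAT) together with 9 genes of its signalling complex or of the programme of lipid-associated macrophages (LAMs). The 10 genes, out of 31053 in the count table, were Trem2, Tyrobp, Hcst, Syk, Gpnmb, Spp1, Cd9, Cd63, Plin2 and Cd5l. They were chosen by the values of these same count tables, for large rises in the only comparison of the series, Ucp1Δ/Δ against WT BAT. Their differences between the genotypes are therefore given as a description, without a test. Plin2 appears with a trailing dash in the list that defines the group and was taken as Plin2.

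The study asked whether LAMs accumulate in enlarging BAT when fat release from brown adipocytes is blocked. For this purpose the BAT transcriptome of 4 WT mice and 4 Ucp1Δ/Δ mice was sequenced in bulk, all on the C57BL6/J background, labelled as 10 weeks old, while the legend of the study gives a younger age. Ucp1Δ/Δ mice, labelled ATGLKO, descend from a cross of Pnpla2 flox/flox with Ucp1-Cre mice, so that ATGL, the lipase encoded by Pnpla2, is lost where the Ucp1 promoter is active, that is in thermogenic adipocytes. Macrophages are not expected to carry the deletion. The flox and Cre status of the WT mice was not given in the sources used here.

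One label calls the cell type stromal vascular fraction, whereas the tissue is labelled BAT. Brown adipocyte markers were abundant in every library, with 13867 to 24524 summed CPM (counts scaled to the same total in every library) in WT and 10849 to 16242 in Ucp1Δ/Δ mice over 9 genes, Ucp1 and Adipoq among them. The libraries thus held adipocyte RNA and not the stromal fraction alone. Pnpla2 fell from 2891 ± 189.8 to 470.0 ± 58.8 CPM (SD, n = 4), a log2 fold change (log2FC) of -2.62 ± 0.17 (standard error) with a Benjamini-Hochberg adjusted p of 2e-07 in edgeR's quasi-likelihood test. Depth was 2017697 to 3115956 counts per mouse, of which mitochondrial genes took 38.4% to 45.6%. At this depth 3 counts, taken as the floor for a gene listed at 0, equal 0.963 to 1.49 CPM, and intervals and floors given here cover counting error only.

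TREM2 is a cell surface receptor of the immunoglobulin family that binds lipids, lipoproteins and debris of dying cells. It has almost no signalling tail of its own and relies on the adaptors DAP12, encoded by Tyrobp, and DAP10, encoded by Hcst. Phosphorylated DAP12 recruits the kinase SYK, whereas DAP10 recruits phosphoinositide 3-kinase. In adipose tissue, TREM2 marks the LAMs, macrophages that take up lipid around enlarged or dying adipocytes and switch on genes for lysosomes and lipid handling, including the lysosomal glycoprotein GPNMB, the secreted protein osteopontin (Spp1), the tetraspanins CD9 and CD63, the lipid droplet coat protein PLIN2 and the scavenger protein AIM (Cd5l).

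The promoters of 3 of these genes are shown because the genes moved differently: of the 7 genes that could be fitted, Trem2 and Gpnmb had the largest log2FC and Plin2 the smallest. Each window runs from 100 bases before to 20 bases after the RefSeq start (GRCm38.p6), 5′ to 3′ on the strand of the gene, with letters matching a searched motif in capitals. The Trem2 window lies at chr17:48346301-48346420 on the + strand, the Gpnmb window at chr6:49036418-49036537 on the + strand and the Plin2 window at chr4:86670040-86670159 on the - strand.
Trem2: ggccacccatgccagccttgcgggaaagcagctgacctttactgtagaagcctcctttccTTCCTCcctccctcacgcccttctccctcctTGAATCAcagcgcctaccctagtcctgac
Gpnmb: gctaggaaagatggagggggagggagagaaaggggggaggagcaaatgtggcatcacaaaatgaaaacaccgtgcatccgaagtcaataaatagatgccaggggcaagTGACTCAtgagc
Plin2: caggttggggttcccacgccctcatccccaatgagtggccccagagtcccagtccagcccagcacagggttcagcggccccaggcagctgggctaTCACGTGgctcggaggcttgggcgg

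Motif letters were searched on both strands of windows from 250 bases before to 50 after the start, and 9 of the 10 genes, all but Tyrobp, had such windows, 11 in all. In Trem2 the capitals mark the core of a PU.1 box (GAGGAA, here on the opposite strand as TTCCTC), which begins 40 bases before the start. They also mark TGAATCA, 9 bases before the start, which matched the loose AP-1 pattern searched (TGANTCA, where N is any base). Whether AP-1 binds this form, with A at the centre, was not tested. In Gpnmb the capitals mark an AP-1 site, TGACTCA, from base 9 after the RefSeq start. That start lies 28 bases before the GENCODE gene start given below for Gpnmb. By GENCODE the site and the whole printed window thus lie before the gene. In Plin2 the capitals mark the CLEAR form of the E-box bound by MiT/TFE factors (TCACGTG), from 5 bases before the start.

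The matches were set beside those in all mouse promoters of the same length. GAGGAA was present in 28.3% of the 32851 promoters and in 5 of the 11 windows (Cd5l, Spp1, Cd63, Syk and Trem2, each of which had it in 1 window). TGANTCA was present in 7.81% of all promoters and in 2 of the 11 windows, those of Trem2 and Gpnmb. TCACGTG was present in 3.77% of all and in the Plin2 window, and its M-box form TCATGTG in 3.77% of all and 0 of the 11. The direct repeats bound by LXR (AGGTCA repeated after 4 bases) and PPAR (AGGNCA repeated after 1 base) were found in 0.0152% and 0.381% of all promoters and in 0 of the 11.

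Trem2 (ENSMUSG00000023992, chr17:48346401-48354147, + strand), the receptor itself, was almost undetected in WT BAT, with 0, 1, 0 and 0 counts in replicates 1 to 4. In Ucp1Δ/Δ BAT it had 64, 130, 28 and 62 counts. Every Ucp1Δ/Δ mouse thus lay far above every WT mouse, and the single WT count sets the size of any ratio.

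The Trem2 level was 0.111 ± 0.222 CPM in WT and 25.2 ± 11.8 CPM in Ucp1Δ/Δ mice (SD, n = 4), and the fitted log2FC was 7.33 ± 0.67. The Ucp1Δ/Δ to WT ratio of the counts summed over each group, corrected for depth, was 242, with a 95% counting interval of 43.0 to 9580. The fitted value depended on the 1 count of WT replicate 2: it was 9.02 without that mouse and 5.55 with limma on the deposited log2 values. Among the Ucp1Δ/Δ mice Trem2 varied 3.46-fold, from 11.6 CPM in replicate 3 to 40.1 CPM in replicate 2.

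The adaptors Tyrobp and Hcst are neighbours on chromosome 7. Tyrobp (ENSMUSG00000030579, chr7:30413760-30417585, + strand) and Hcst (ENSMUSG00000064109, chr7:30417712-30419854, - strand) lie tail to tail, with 126 bases between their 3′ ends and no shared exon.

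Tyrobp, unlike Trem2, had counts in all WT mice: 7, 12, 9 and 4, against 175, 278, 83 and 93 in Ucp1Δ/Δ mice. Its level rose from 3.47 ± 1.40 to 55.3 ± 23.5 CPM, with a log2FC of 3.98 ± 0.35, and the groups did not overlap. Hcst was measured at much lower counts, 1, 1, 1 and 4 in WT and 23, 23, 10 and 9 in Ucp1Δ/Δ mice. The Hcst groups did not overlap either, at 0.823 ± 0.795 and 5.79 ± 2.12 CPM. Hcst did not pass the default filter on low counts, so no fitted value is given for it, and the same ratio of its summed counts was 7.90, with a 95% counting interval of 3.63 to 20.4.

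Syk (ENSMUSG00000021457, chr13:52583173-52648792, + strand), the kinase downstream of DAP12, had 3, 6, 4 and 3 counts in WT and 22, 32, 20 and 21 counts in Ucp1Δ/Δ mice. Its level was 1.75 ± 0.615 CPM in WT and 8.71 ± 0.926 CPM in Ucp1Δ/Δ mice, with a log2FC of 2.29 ± 0.34. Syk varied the least of the 10 genes among the Ucp1Δ/Δ mice, with a coefficient of variation of 10.6% against 46.9% for Trem2 and 42.4% for Tyrobp. At 20 to 32 counts per mouse, counting error alone can spread values by more than 10.6%. A steadier level of Syk between mice was thus not established.

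Gpnmb (ENSMUSG00000029816, chr6:49036546-49070929, + strand), which encodes a lysosomal and cell surface glycoprotein of lipid-laden macrophages, had 5.57, 3.11, 2.32 and 2.51 CPM in WT. In Ucp1Δ/Δ mice it had 118, 222, 88.3 and 149 CPM. The lowest Ucp1Δ/Δ mouse was far above the highest WT mouse. The means were 3.38 ± 1.50 and 144 ± 57.3 CPM, with a log2FC of 5.44 ± 0.35, or 43.3-fold.

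The tetraspanins Cd9 and Cd63 both rose, but from very different starting points. Cd9 (ENSMUSG00000030342, chr6:125460266-125494791, - strand), a cell surface organiser used as a LAM marker, had 2, 7, 0 and 2 counts in WT and 17, 45, 21 and 16 in Ucp1Δ/Δ mice. Its level was 1.28 ± 1.31 and 8.85 ± 3.55 CPM, with a log2FC of 2.84 ± 0.56 that was 3.83 without WT replicate 2. Cd9 shares 218 exon bases with Gm26728 on the opposite strand, and whether the counting used strand was not given in the sources used here.

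Cd63 (ENSMUSG00000025351, chr10:128900989-128912822, + strand), a tetraspanin of late endosomes and lysosomes found in most cell types, was readily measured in WT BAT, with 107, 90.2, 105 and 92.0 CPM. In Ucp1Δ/Δ mice it had 214, 363, 154 and 249 CPM. The groups did not overlap, and the spread was wider in Ucp1Δ/Δ mice (245 ± 87.7 CPM) than in WT (98.6 ± 8.69 CPM). Its log2FC was 1.31 ± 0.23.

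Spp1 and Cd5l are known as strongly expressed products of activated or resident macrophages, yet both were near the limit of detection. Spp1 (ENSMUSG00000029304, chr5:104435118-104441050, + strand), the gene of osteopontin, had 0 counts in every WT mouse and 2, 8, 3 and 2 counts in Ucp1Δ/Δ mice. Against a floor of 3 counts over the WT group, Spp1 was 4.26-fold higher, with the Ucp1Δ/Δ counts taken as exact. The counting interval of its ratio of summed counts, which also covers the error of the Ucp1Δ/Δ counts, began at 3.05. Spp1 shares 309 exon bases with Gm42793 on the same strand, so that reads from the shared stretch cannot be told apart.

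Cd5l (ENSMUSG00000015854, chr3:87357881-87371073, + strand) had 0 counts in every WT mouse and 2, 2, 1 and 2 counts in Ucp1Δ/Δ mice. Against the same floor Cd5l was 1.99-fold higher, again with the Ucp1Δ/Δ counts taken as exact, and its counting interval began at 1.23. Each Ucp1Δ/Δ mouse was above each WT mouse for both genes, but by 1 to 8 counts. Neither gene passed the filter.

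Plin2 (ENSMUSG00000028494, chr4:86648386-86670060, - strand), which coats lipid droplets in adipocytes and macrophages alike, was the exception. It had 531, 1180.3, 969 and 426 CPM in WT and 1421, 718, 725 and 584 CPM in Ucp1Δ/Δ mice. The groups overlapped: only replicate 1 of the Ucp1Δ/Δ mice was above the WT range. The means were 777 ± 357 and 862 ± 378 CPM, with a log2FC of 0.15 ± 0.32, and the sign turned when replicate 1 or 4 of WT, or replicate 1 of the Ucp1Δ/Δ mice, was left out (-0.0043, -0.062 and -0.19).

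Of the 10 genes, 7 passed the filter, and 6 of those, all but Plin2, were among the genes called higher at an adjusted p under 0.05 by edgeR, a call that 13.3% of all 8930 genes tested received. Over all 10 genes, 9 had each Ucp1Δ/Δ mouse above each WT mouse, against 10.9% of all genes with a count, and of the 7 that passed the filter 6 did, against 14.4% of the genes tested. Since the genes were chosen for their rise in this contrast, nothing is read from these counts. In bulk tissue, more macrophages and more RNA of a gene per macrophage cannot be told apart, and this holds for every level given here.

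**Figure D1:**
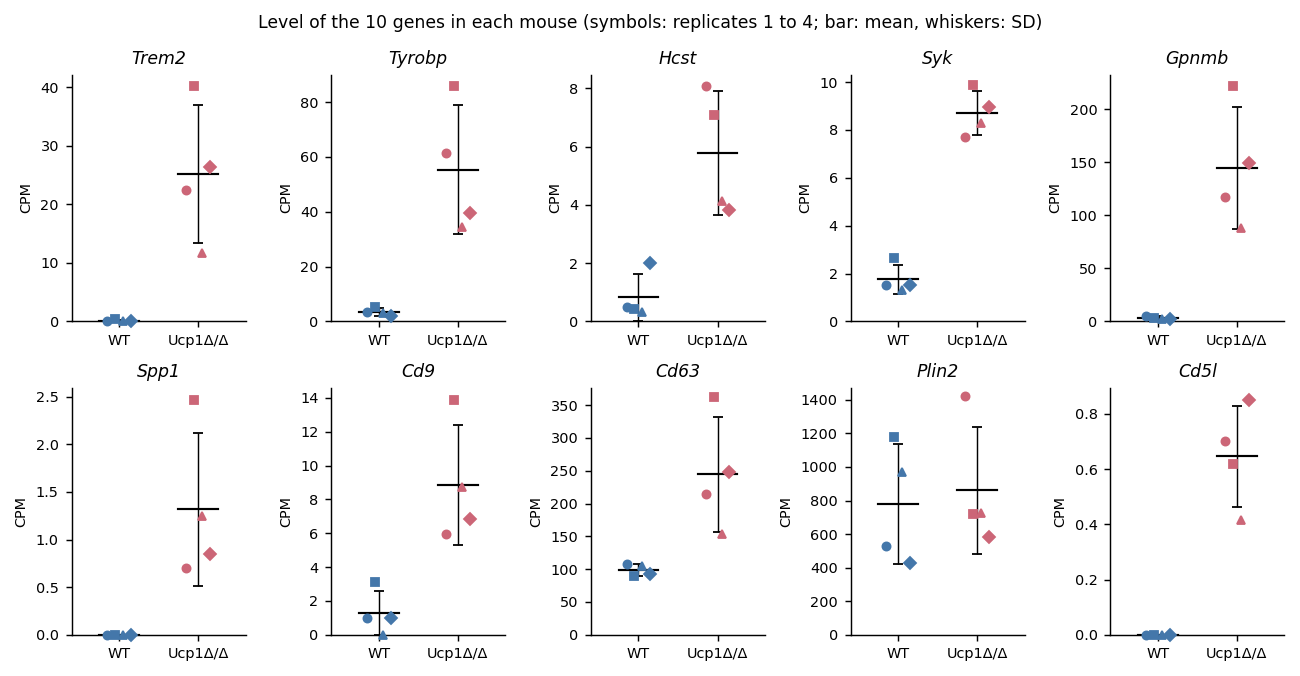
Level of each of the 10 genes in CPM (vertical axes, linear, from 0, a scale for each gene) in the 4 WT (blue) and 4 Ucp1Δ/Δ mice (red), with a symbol for each replicate number, the mean as a bar and the SD as whiskers. For 9 genes every Ucp1Δ/Δ mouse is above every WT mouse, and the Plin2 groups overlap.

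The 10 genes did not move in equal proportion. In WT BAT the counts of Trem2 summed to 3.13 per 100 counts of Tyrobp, and in Ucp1Δ/Δ BAT to 45.2. The Ucp1Δ/Δ mice ranged from 33.7 in replicate 3 to 66.7 in replicate 4. The Trem2 counts per Tyrobp count were thus above the pooled WT value in each Ucp1Δ/Δ mouse. For the other adaptor there were 14.3, 8.33, 11.1 and 100 counts of Hcst per 100 of Tyrobp in WT and 8.27 to 13.1 in Ucp1Δ/Δ mice, where WT replicate 4, with 4 counts of each gene, stood apart from the rest.

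Gpnmb showed the same kind of shift against Cd63. There were 5.19, 3.45, 2.22 and 2.73 counts of Gpnmb per 100 of Cd63 in WT, and 54.9, 61.1, 57.3 and 60.1 in Ucp1Δ/Δ mice. Although both genes varied more than 2-fold between the Ucp1Δ/Δ mice, their ratio stayed within this narrow range. Gpnmb and Trem2 also kept a narrow ratio in Ucp1Δ/Δ mice, with 523 to 761 counts of Gpnmb per 100 of Trem2. Counts per gene depend on the length and priming of each transcript, so these ratios compare mice and not the abundance of the genes.

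Macrophage markers rose with the members. The 11 macrophage markers (Adgre1, Csf1r, Cd68, Ptprc, Fcgr1, Mertk, Cd14, Lyz2, C1qa, C1qb and C1qc) summed to 107 to 170.3 CPM in WT and 1018 to 1616 CPM in Ucp1Δ/Δ mice, and 8 of the 9 that could be tested were called higher by edgeR. Beside this and the later marker lists, 13.3% of all 8930 genes tested were called higher. Markers of resident and perivascular macrophages summed to 39.4 to 74.4 and 170 to 273 CPM, with 7 of 8 tested called higher, and monocyte markers to 11.1 to 19.1 and 40.4 to 53.5 CPM. The level of each member was therefore also expressed as a percentage of the summed CPM of the 11 macrophage markers.

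On that scale, Trem2 was 0.0653 ± 0.131% in WT and 1.96 ± 0.674% in Ucp1Δ/Δ mice, 30.1 times the WT mean. That WT mean came from the 1 count of WT replicate 2, and the ratio was 22.5 without WT replicate 1, 3 or 4. Without WT replicate 2 no ratio could be formed. Gpnmb was 2.40 ± 0.832% and 11.4 ± 3.08%, or 4.75 times, and Tyrobp 2.45 ± 0.676% and 4.28 ± 0.856%, or 1.74 times. For these 3 genes the groups did not overlap. As they were chosen for large rises in this same comparison, their excess over the macrophage markers is a description only.

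Hcst, Cd9 and Syk did not exceed the macrophage markers, at 0.735, 0.860 and 0.575 times the WT mean, and the groups overlapped for Hcst and Cd9 but not for Syk. Like that of Trem2, the values of Hcst and Cd9 each rested on 1 WT mouse. Without WT replicate 4, which had 4 of the 7 WT counts, Hcst was 1.51 times the WT mean and every Ucp1Δ/Δ mouse was above the WT mice. Without WT replicate 2, Cd9 was 1.46 times the WT mean. For Hcst and Cd9, a level above or below that of the macrophage markers was thus not established. Syk, with 3 to 6 counts in each WT mouse, was 0.538 to 0.629 times the WT mean whichever WT mouse was left out. Cd63 and Plin2, which adipocytes and other cells of BAT also express, were at 0.265 and 0.122 times. Taking Csf1r, Ptprc and Adgre1 alone as the denominator, a choice made after the values were seen, gave 34.6 for Trem2, 5.87 for Gpnmb, 2.20 for Tyrobp, 0.896 for Hcst, 0.988 for Cd9, 0.695 for Syk, 0.332 for Cd63 and 0.156 for Plin2. These markers are also part of the longer list, and the Trem2 value again rested on 1 WT count.

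**Figure D2:**
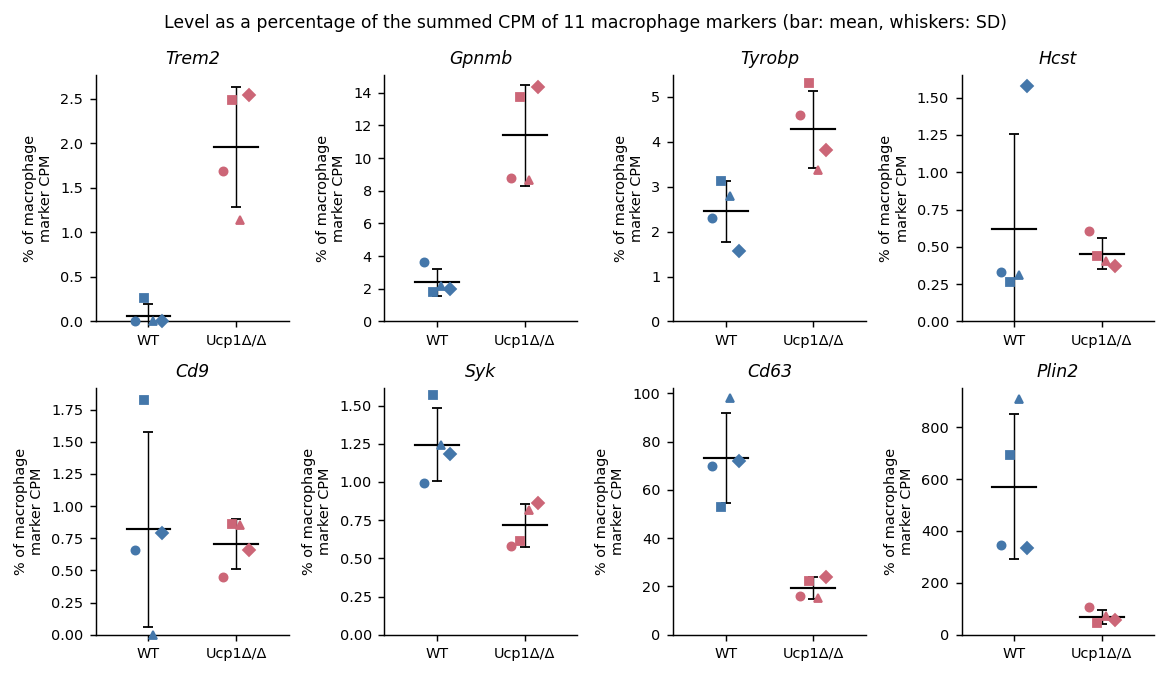
Level of 8 of the genes as a percentage of the summed CPM of 11 macrophage markers in the same library (vertical axes, linear, from 0), for 4 WT (blue) and 4 Ucp1Δ/Δ mice (red), with the mean as a bar and the SD as whiskers. Trem2, Gpnmb and Tyrobp are higher in every Ucp1Δ/Δ mouse, Syk, Cd63 and Plin2 lower in every Ucp1Δ/Δ mouse, and Hcst and Cd9 overlap between the genotypes.

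Other cell types that express some of these genes were followed by their own markers. Osteoclasts, which share Gpnmb, Tyrobp and Spp1 with LAMs, had summed markers of 7.04 to 11.6 CPM in WT and 21.6 to 25.3 CPM in Ucp1Δ/Δ mice over 7 genes, with the defining Calcr and Oscar at 0 in all 8 mice. The 1 osteoclast marker that could be tested was called higher. NK cells, which use both adaptors, had 1.33 to 8.45 and 6.63 to 11.6 CPM over 7 genes, of which none could be tested. T cell markers were at 2.98 to 5.53 and 6.39 to 14.0 CPM, and B cell markers at 0 to 1.51 and 0.702 to 1.70 CPM with Cd79a at 0.

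Neutrophil markers were at 1.01 to 7.56 and 1.70 to 5.87 CPM, with Ly6g and Mpo at 0, dendritic cell markers at 17.1 to 30.4 and 16.1 to 26.9 CPM, and mast cell markers at 5.03 to 9.78 and 4.97 to 14.0 CPM with Fcer1a at 0. Mesothelial markers were at 4.31 to 10.1 and 4.32 to 8.94 CPM, with Upk3b and Wt1 at 0. Fibroblast and progenitor markers were at 269 to 362 and 750 to 1321 CPM, with 4 of 5 tested called higher. Endothelial markers were at 142 to 177 and 192 to 214 CPM. Both sums, like those of the osteoclast and T cell markers above, were higher in each Ucp1Δ/Δ mouse than in every WT mouse. The part of these cells in the levels of the 10 genes was not tested.

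The 4 Ucp1Δ/Δ mice differed among themselves, and several but not all of the 10 genes shared a pattern. Replicate 2 was the highest for 7 of the 10 genes and replicate 3 the lowest for 5. Relative to the Ucp1Δ/Δ mean on the log2 scale, replicate 2 was higher by 0.78 for Trem2, 0.72 for Tyrobp, 0.70 for Gpnmb, 0.67 for Cd9 and 0.63 for Cd63, but by only 0.17 for Syk. Replicate 3 was lower for Trem2 (-0.94), Gpnmb (-0.62), Cd63 (-0.60) and Tyrobp (-0.58), with Syk (-0.06), Cd9 (0.05) and Spp1 (0.02) near the mean.

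Plin2 did not share this pattern, being highest in replicate 1 (0.81) and below the mean in replicate 2 (-0.18). Hcst was also highest in replicate 1 (0.49), and Cd5l in replicate 4 (0.20). The summed macrophage markers moved in the same direction as Trem2 in replicates 2 and 3 but by less (0.39 and -0.27), as did the fibroblast markers (0.41 and -0.40). In replicates 1 and 4 the macrophage sum (0.12 and -0.24) had the opposite sign to Trem2 (-0.03 and 0.19). The fibroblast sum there (-0.12 and 0.11) had the same sign as Trem2. Brown adipocyte markers were lowest in replicate 2 (-0.25).

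Skeletal muscle markers also differed between these mice, and whether the markers came from tissue beside the BAT depot was not tested. Their sum was 315, 1982, 66.3 and 925 CPM in Ucp1Δ/Δ replicates 1 to 4, so that they ranked the 4 mice in the same order as Trem2, Gpnmb and Cd63 did. In WT they ranged from 21.5 to 1535 CPM, and WT replicate 1, with the most, had 0 counts of Trem2 but the highest WT level of Gpnmb (5.57 CPM against 2.32 to 3.11) and of Cd63 (107 CPM against 90.2 to 105).

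In the 4 libraries with the fewest muscle counts, a pair from each genotype chosen after the values were seen, the log2FC was 6.19 for Trem2, 3.57 for Tyrobp, 2.04 for Syk, 5.26 for Gpnmb, 2.39 for Cd9 and 0.93 for Cd63. Each of these members was thus still higher in Ucp1Δ/Δ mice, by a smaller log2FC than with all 8 mice. The part of muscle tissue in the order of the Ucp1Δ/Δ mice was not tested. Without Ucp1Δ/Δ replicate 2, the log2FC was 6.99 for Trem2, 3.70 for Tyrobp, 5.16 for Gpnmb and 1.07 for Cd63.

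**Figure D3:**
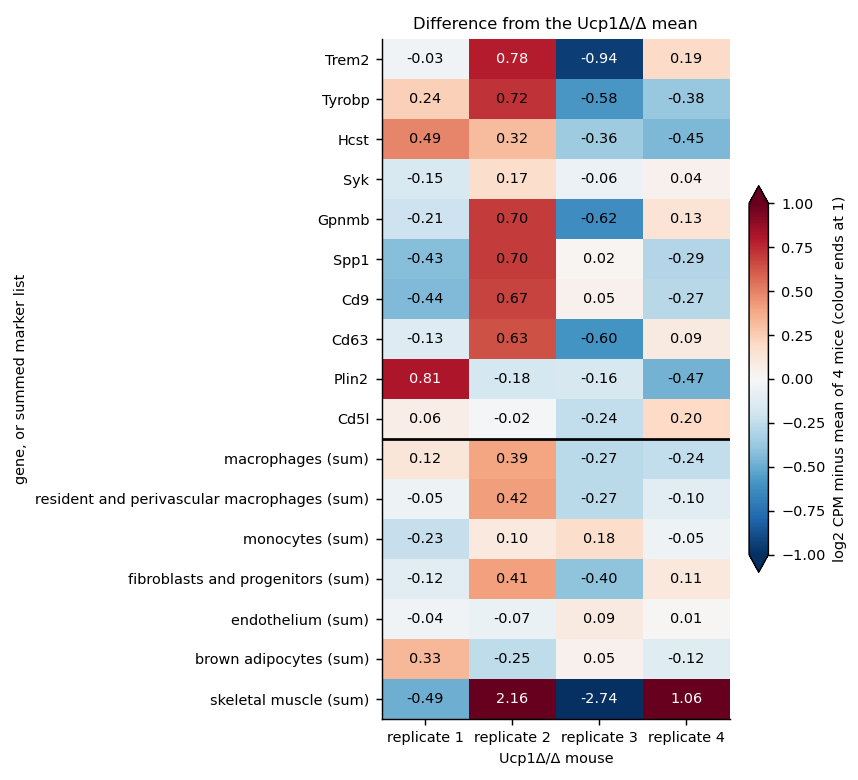
Log2 CPM of each of the 10 genes (above the line) and of 7 summed marker lists (below the line) in each Ucp1Δ/Δ mouse minus the mean of the 4 mice, with red above and blue below the mean and colours ending at 1. Replicate 2 is above the mean for Trem2 (0.78), Tyrobp (0.72) and Gpnmb (0.70) and replicate 3 below it, Plin2 peaks in replicate 1 (0.81), and muscle markers differ the most (2.16 in replicate 2 and -2.74 in replicate 3).

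The genes most like Trem2 and Tyrobp over the 8 mice were found by the root mean square difference of log2 CPM, each gene centred on its own mean, among 6398 tested genes with a mean of at least 10 CPM. Nearest to Trem2 was Mmp12 (0.34), the macrophage elastase, followed by the lysosomal protease gene Ctss (0.37), the lysosomal marker Cd68 (0.38), the galectin gene Lgals3 (0.38) and the chemokine gene Ccl9 (0.46). Among the other 9 described genes, Gpnmb was the nearest to Trem2 (0.42) and Tyrobp next (0.61). Of the 6398 genes searched, 4 were thus closer in profile to Trem2 than Gpnmb was, but only 9 genes of the group could be compared. The prior count of 2 also reduces the genotype difference of genes near 0 in WT, such as Trem2.

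Mmp12 resembled Trem2 also in its WT level, with 0 to 0.503 CPM in WT and 31.6, 73.2, 19.1 and 40.5 CPM in Ucp1Δ/Δ replicates 1 to 4. Nearest to Tyrobp were the lysozyme gene Lyz2 (0.25), Ccl9 (0.26), the chemokine gene Ccl6 (0.29), the Fc receptor adaptor Fcer1g (0.33) and the complement gene C1qa (0.36). Trem2 was farther from Tyrobp (0.61) than these 5 genes, the nearest of the 6398 searched. The difference between genotypes enters this measure, and Trem2 and Gpnmb were chosen for that difference.

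The rest of the TREM2 pathway was described through lists of genes that left out the 10 members, written with earlier results of these data known, so that their counts are no independent evidence of a direction. List genes with few WT counts passed the filter only through the Ucp1Δ/Δ mice. Among the genes named below these were Ms4a7, Lat2, Blnk, Cd68, Cd37, Cd53, Cd44, Itga4, Thbs1, Spi1 and Irf8. For such genes only a rise could be called, so their adjusted p values and their part in the list counts are no evidence of a direction. Of 13 genes for TREM2 ligands, shedding and trafficking, 10 were tested, 6 were called higher and 0 lower. Beside this list and those below, 13.3% of all 8930 genes tested were called higher and 7.64% lower. Lgals3, which encodes galectin-3, rose from 6.85 ± 1.99 to 333 ± 130 CPM (log2FC 5.61 ± 0.32, adjusted p = 1.3e-07, edgeR). Clu, the gene of the lipoprotein clusterin, rose from 10.5 ± 3.47 to 76.6 ± 14.3 CPM (log2FC 2.90 ± 0.25, adjusted p = 1.41e-06). Ms4a7, a gene of the macrophage MS4A family, rose with a log2FC of 3.68 ± 0.38 (adjusted p = 6.86e-06).

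Not every TREM2 ligand gene rose. Lpl, the lipoprotein lipase gene that adipocytes also express strongly, had 4600 ± 440 CPM in WT and 3501 ± 534 CPM in Ucp1Δ/Δ mice (log2FC -0.39 ± 0.17, adjusted p = 0.121), and Hspd1, a mitochondrial chaperone gene, had a log2FC of 0.14 ± 0.18 (adjusted p = 0.643). The list median was 0.80, beside -0.01 for all 8930 genes tested. In this list 1 gene was lower at an unadjusted p under 0.05, DESeq2 called 1 lower (Lpl) and limma voom 0.

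In the cascade below DAP12 and DAP10, 18 of 35 genes were tested, 10 were called higher and 0 lower by edgeR, with a median of 0.80. Fcer1g, the Fc receptor gamma chain, which like DAP12 signals through SYK, rose from 6.08 ± 1.93 to 65.2 ± 18.6 CPM (log2FC 3.42 ± 0.28, adjusted p = 8.55e-07). The scaffold genes Lat2 (log2FC 3.66 ± 0.35, adjusted p = 3.34e-06) and Blnk (3.31 ± 0.54, adjusted p = 0.000366), whose products dock enzymes phosphorylated downstream of SYK, rose too. WT replicate 2 held 7 of the 10 WT counts of Blnk, whose log2FC was 4.55 without that mouse and 2.32 in the 4 libraries with the fewest muscle counts.

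Among the 8 genes that did not pass the test, the most abundant were Pik3r1, the regulatory subunit of phosphoinositide 3-kinase (log2FC 0.27 ± 0.19, adjusted p = 0.346), and the phosphatase gene Ptpn11 (-0.07 ± 0.23, adjusted p = 0.874). At an unadjusted p under 0.05, 0 genes of the list were lower, and DESeq2 and limma voom called 0 lower. The other 17 genes of the list had too few counts.

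Other receptors that pair with these adaptors were scarce. Of 15 such genes only Cd300ld and Cd300lb, activating members of the CD300 family, could be tested. In WT they had 2, 3, 4 and 5 counts (Cd300ld) and 1, 1, 0 and 1 (Cd300lb). Both passed the filter only through the Ucp1Δ/Δ mice, so a rise was the only call they could receive. Cd300ld rose from 1.55 ± 0.662 to 24.8 ± 6.11 CPM (log2FC 3.99 ± 0.33, adjusted p = 8.55e-07, edgeR) and Cd300lb from 0.363 ± 0.244 to 5.51 ± 2.10 CPM (3.91 ± 0.59, adjusted p = 0.000216). The other 13 were below the filter, with Trem1 at 0 counts in WT and 1 in Ucp1Δ/Δ mice in sum, and Trem3 and Treml4 at 0 in all mice.

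Of 36 further genes of the LAM programme, 34 were tested, 20 were called higher and 0 lower by edgeR, with a median log2FC of 0.79. Ctss rose from 10.5 ± 3.13 to 221 ± 74.6 CPM (log2FC 4.40 ± 0.29, adjusted p = 2.05e-07), and Cd68 from 2.79 ± 1.25 to 69.0 ± 26.3 CPM (4.64 ± 0.34, adjusted p = 5.18e-07). Lgals3 belongs to this list too. The highly expressed lipid gene Fabp4, a fatty acid binding protein of adipocytes and macrophages, did not pass the test (log2FC -0.39 ± 0.17, adjusted p = 0.127). At an unadjusted p under 0.05, 3 genes were lower, DESeq2 called 2 lower (Fabp4 and Lpl) and limma voom 0.

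Tetraspanins other than Cd9 and Cd63 went both ways. Of 29 genes, 16 were tested, 4 were called higher and 2 lower, beside 13.3% and 7.64% of all genes tested. Cd37 (log2FC 2.40 ± 0.42, adjusted p = 0.000666) and Cd53 (2.89 ± 0.54, adjusted p = 0.00109), both restricted to leukocytes, and Tspan4 (0.96 ± 0.21, adjusted p = 0.00336), known for its part in migrasomes, rose by edgeR's test. Tspan18 (-1.53 ± 0.25, adjusted p = 0.00045) and Tspan3 (-0.74 ± 0.21, adjusted p = 0.0187) fell. The Tspan3 call was lost without Ucp1Δ/Δ replicate 2 (adjusted p = 0.0514) or replicate 4 (0.0649), and in the 4 libraries with the fewest muscle counts the adjusted p was 0.128 for Tspan3 and 0.0536 for Cd53. The widely expressed Cd151 (0.43 ± 0.19, adjusted p = 0.119) and Cd81 (0.06 ± 0.20, adjusted p = 0.873) did not pass, and the list median was 0.16.

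The perilipins, the family of Plin2, did not move as a group. Plin1, the droplet coat protein of adipocytes, fell from 618 ± 204 to 329 ± 77.4 CPM (log2FC -0.91 ± 0.23, adjusted p = 0.0113, edgeR), and the broadly expressed Plin3 rose from 80.2 ± 15.6 to 120.4 ± 22.0 CPM (0.59 ± 0.19, adjusted p = 0.04). The Plin3 call was lost in 6 of the 8 fits that left out 1 mouse, which gave adjusted p of up to 0.116, with limma on the deposited log2 values (0.0524) and in the 4 libraries with the fewest muscle counts (0.0854). Plin4 (0.25 ± 0.15, adjusted p = 0.277) and Plin5 (-0.11 ± 0.24, adjusted p = 0.797) were not called, so that Plin2, at 0.15 ± 0.32, lay between the family members that fell and rose.

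Osteopontin itself was barely detected, and 7 of 15 genes of its receptors and processing fell below the filter. Of the 8 tested, 6 were called higher and 0 lower by edgeR, with a median of 1.12; 0 were lower at an unadjusted p under 0.05, and DESeq2 and limma voom called 0 lower. Cd44, a receptor of osteopontin and hyaluronan, rose from 1.94 ± 0.665 to 22.8 ± 7.03 CPM (log2FC 3.59 ± 0.34, adjusted p = 3.46e-06). The integrin gene Itga4 (2.78 ± 0.36, adjusted p = 5.47e-05) and Thbs1 (2.86 ± 0.46, adjusted p = 0.000346) rose as well. Thbs1 encodes thrombospondin-1, a matrix protein that was on the list although it is neither a receptor nor a protease of osteopontin. Mmp3, a protease that cleaves osteopontin (1.19 ± 0.57, adjusted p = 0.166), and Itgav, its best known integrin receptor subunit (-0.23 ± 0.28, adjusted p = 0.611), did not pass.

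Among 16 transcription factors known to act on LAM or macrophage genes, 13 were tested, 4 were called higher and 0 lower by edgeR, with a median of 0.13. Of all genes tested, 13.3% were called higher and 7.64% lower. Spi1, which encodes PU.1, rose from 3.65 ± 0.925 to 41.4 ± 11.7 CPM (log2FC 3.51 ± 0.28, adjusted p = 6.94e-07). Irf8 (2.51 ± 0.30, adjusted p = 2.61e-05) and Maf (0.996 ± 0.19, adjusted p = 0.00113) rose too. Spi1 and Irf8, with few WT counts, passed the filter only through the Ucp1Δ/Δ mice. The adipocyte regulators Cebpa (-0.48 ± 0.20, adjusted p = 0.107) and Pparg (-0.33 ± 0.18, adjusted p = 0.219) were not called. At an unadjusted p under 0.05, 2 of these genes were lower, and DESeq2 and limma voom called 0 lower.

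Over the 8 lists, which share some genes, 101 of 159 genes were tested, 50 were called higher and 3 lower, beside 13.3% of all tested genes called higher and 7.64% lower. Some of the 50 passed the filter only through the Ucp1Δ/Δ mice, so that a rise was the only call they could receive. The 3 that fell were Tspan18, Tspan3 and Plin1.

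**Figure D4:**
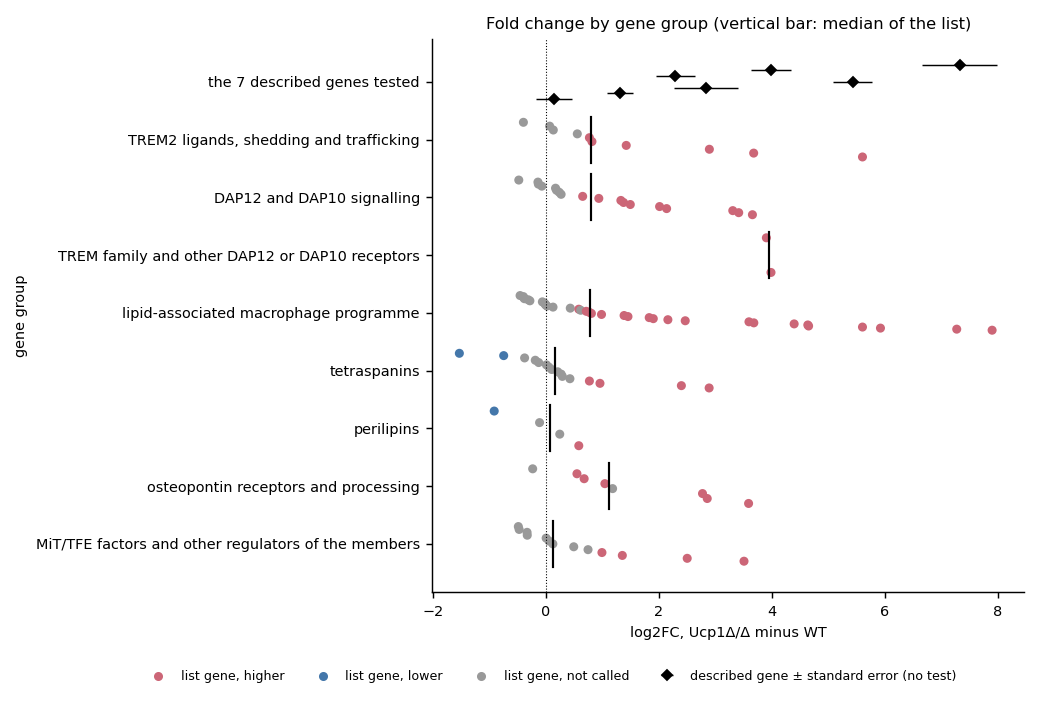
Log2FC of Ucp1Δ/Δ against WT BAT (horizontal axis) for the 7 described genes that could be fitted (black diamonds, standard error as whiskers, from Trem2 at 7.33 to Plin2 at 0.15) and for the tested genes of the 8 lists (red higher, blue lower, grey not called by edgeR), with the median of each list as a vertical bar. Most lists reach to high values on the right, and the 3 blue points are Tspan18, Tspan3 and Plin1.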

How the data were processed

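BAT of 4 WT and 4 Ucp1Δ/Δ mice was profiled from total RNA with a digital mRNA-seq kit read from 1 end. Per the study's methods, the authors used bbduk for trimming, STAR for alignment to mm10, HTseq-counts for gene counts and DESeq2 for testing. The submitters' processing notes name Trimmomatic, HISAT2 and DESeq2 instead, and the conflict was not settled. The annotation release and the use of strand in counting were not given in the sources used here. The authors deposited raw counts without normalization and log2 values of scaled counts, the latter used in 1 alternative. A kit that counts transcript ends makes counts comparable between mice but not between genes.

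Symbols came from GENCODE (30934 of 31053 genes). Genes were filtered with filterByExpr, scaled by TMM and tested with edgeR 4.0.16 (quasi-likelihood test, Benjamini-Hochberg adjustment, threshold 0.05, genotype alone) in R 4.3.3, leaving 8930 genes. Each standard error is the absolute log2FC divided by the root of its F statistic. CPM used TMM-scaled totals, and likeness and differences between mice log2 CPM with a prior count of 2. Counting intervals were exact. The depth, 2017697 to 3115956 counts, limits what can be said of genes with few counts, and 3 counts were taken as the floor for a count of 0.

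Members and lists were chosen with earlier results of these data known. An item of 2 lists is not reported here, and all list values were computed without it. Named list genes were the 3 called higher and 2 called lower with the smallest adjusted p and the 2 uncalled with the highest mean CPM. The chi-square between mice of a genotype was 4.69 to 23.2 times its degrees of freedom, so none was a duplicate. Nothing gives the same number in both genotypes a shared litter or day, so replicate numbers were not used to pair mice. The test was tested on simulated counts of this comparison (8735 genes): 99% of changed genes were recovered at a log2 change of 2 and 61.5% at 1, and 6.51% of calls were unchanged genes. Alternatives were DESeq2 1.42.0, limma 3.58.1, other scaling and filters, a replicate block, leaving out each mouse and, added later, the 4 libraries with the fewest muscle counts and other macrophage denominators. Promoters came from RefSeq tables.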

Additional observations from a re-analysis of the deposited data

Results flagged for a closer look

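In 5 of 94 groups of 4 mice, 1 mouse stood apart by Dixon's test at the 95% level, and chance gives about 4.7 of 94 (1 in 20). Trem2 in WT had a ratio of gap to range of 1, from the 1 count of WT replicate 2 against 0 in the others. Hcst in WT had a ratio of 0.842, with 4 counts in replicate 4 and 1 in each of the others. Cd300lb was past the limit in WT (0.902, with 0 counts in replicate 3 and 1 in the others) and in Ucp1Δ/Δ mice (0.840, with 28 counts in replicate 2 and 10 to 13 in the others). Cd81 in WT had a ratio of 0.831, with 175 CPM in replicate 2 and 118 to 126 CPM in the others.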

How the results depend on the processing

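Over 16 or 17 alternatives each, the log2FC ranged from 5.55 to 9.02 for Trem2, 3.57 to 4.25 for Tyrobp, 2.04 to 2.55 for Syk, 5.16 to 5.74 for Gpnmb, 2.30 to 3.83 for Cd9 and 0.93 to 1.49 for Cd63, and for Plin2 from -0.19 to 0.41 on leaving out 1 mouse. Hcst was fitted under 6 settings, with 2.73 to 3.88, and 3.67 without WT replicate 4. Of 36 named list genes, 21 had a value under all 17 alternatives, of which 11 kept direction and call throughout, and 15 had a value under fewer.

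With at least 10 counts required in every mouse, a filter that removes genes near 0 in WT, 746 genes were higher and 449 lower, 21 of the listed genes were higher (DAP12 and DAP10 3, other receptors 0, LAM 9, tetraspanins 2, osteopontin 3, regulators 2). With 1 count in any mouse, DAP12 and DAP10 had 17 higher and the other receptors 4. In the 4 libraries with the fewest muscle counts, 760 genes were higher and 265 lower (LAM 13 higher, tetraspanins 2 higher and 1 lower, perilipins 0, osteopontin 3). DESeq2 called 5 listed genes lower (ligands 1, LAM 2), and limma on the deposited log2 values 0 perilipins higher.

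Scaling by total counts gave 409 lower genes, shifted the median over all genes tested from -0.01 to 0.13 (log2) and raised the share of higher among called genes from 63.6% to 78.2%. That share was 74.1% in the 4 libraries with the fewest muscle counts.

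Leaving out 1 mouse gave 945 to 1304 higher and 400 to 852 lower genes. Without WT replicate 4 there were 7 listed genes lower, without WT replicate 2 DAP12 and DAP10 had 1 lower. The ranges on leaving out 1 mouse were 1 to 2 higher for the other receptors, 0 to 2 lower for LAM, 1 to 2 lower for tetraspanins, 0 to 1 higher for perilipins and 0 to 2 lower for regulators.

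Signs turned for values near 0: Plin2 (-0.0043, -0.062 and -0.19 without WT replicate 1, WT replicate 4 and Ucp1Δ/Δ replicate 1), Hspd1 (-0.0013 without WT replicate 2), Ptpn11 (0.056 by total counts, 0.059 without WT replicate 1, 0.012 without Ucp1Δ/Δ replicate 2, 0.23 with the fewest muscle counts), Cd81 (-0.014 and -0.072 without WT replicate 4 and Ucp1Δ/Δ replicate 3) and Plin5 (0.022 by total counts, 0.068 without WT replicate 3, 0.0056 without Ucp1Δ/Δ replicate 2). Leaving out 1 mouse gave -0.0013 to 0.24 for Hspd1, -0.29 to 0.059 for Ptpn11, -0.072 to 0.19 for Cd81 and -0.30 to 0.068 for Plin5. Unless stated, the cause was not tested.

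A replicate block gave 1137 higher and 581 lower genes. Deviations of mice with the same number correlated at -0.087, -0.196, 0.304 and 0.241 for numbers 1 to 4. These 4 values of mixed sign cannot settle whether the numbers pair the mice. At 2017697 to 3115956 counts per mouse, genes such as Spp1 and Cd5l could not be fitted, and a count of 0 allows a level of up to 3 counts.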
